A study of Homo sapiens with 6 samples.

Results

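The genes described here are 38 genes of amino acid transport, serine and glycine synthesis, folate-dependent one-carbon metabolism and the adjoining methionine, proline, branched-chain amino acid and polyamine steps. They were taken by symbol, and all 38 were found among the 30735 genes of the files. RNA was sequenced from PANC-1, an established cell line of human pancreatic ductal adenocarcinoma, after transient transfection with CD73 siRNA (3 samples, numbered 1 to 3) or with negative control siRNA (3 samples, numbered 1 to 3). All 6 samples come from this single line, no untransfected sample was analysed here, and the time from transfection to harvest is not given in the sources used here. The labels do not say what the numbers mark, while the paper's heatmap legend for these data speaks of separate knockdown experiments (n = 3). The p-values measure the spread between these samples of 1 line.

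Cells take up amino acids through families of membrane carriers and make others from glucose and glutamine. Serine, drawn from glycolysis by PHGDH, PSAT1 and PSPH, gives glycine and a carbon unit that folate enzymes pass on to purines, thymidylate and methionine. When amino acids run short, translation of the transcription factor ATF4 increases, and ATF4 switches on many of these genes through a composite element in their promoters. MYC, which binds the E-box CACGTG, is another known activator of amino acid transport and polyamine synthesis. Pancreatic cancer cells are known for a high demand for glutamine and other amino acids.

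The promoters of 4 members of the serine, asparagine and aspartate steps are shown because of how these genes differed between samples. ASNS, GOT1 and PSAT1 were higher in knockdown within each replicate number. PHGDH had mixed signs and differed mainly between the replicate numbers. The promoters also show the kind of element just named where it is present. Each is the 250 bases before a RefSeq start (GRCh38.p14), read 5′ to 3′ on the strand of the gene, and capitals mark matches to the ATF4 composite element TGATGNAAN on either strand. The windows are chr7:97872409-97872658 (minus strand) for ASNS, chr10:99430625-99430874 (minus strand) for GOT1, chr9:78296875-78297124 (plus strand) for PSAT1 and chr1:119711684-119711933 (plus strand) for PHGDH.
ASNS: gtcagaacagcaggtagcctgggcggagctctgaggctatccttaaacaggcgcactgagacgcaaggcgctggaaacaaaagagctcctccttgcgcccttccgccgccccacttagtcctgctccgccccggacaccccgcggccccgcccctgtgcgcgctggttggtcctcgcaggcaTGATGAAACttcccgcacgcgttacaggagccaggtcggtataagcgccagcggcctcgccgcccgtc
GOT1: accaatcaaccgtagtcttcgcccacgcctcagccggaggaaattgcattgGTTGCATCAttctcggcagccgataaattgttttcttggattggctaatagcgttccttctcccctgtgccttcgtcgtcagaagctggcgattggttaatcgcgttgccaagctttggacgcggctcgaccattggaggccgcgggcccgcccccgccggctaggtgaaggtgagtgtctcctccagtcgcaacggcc
PSAT1: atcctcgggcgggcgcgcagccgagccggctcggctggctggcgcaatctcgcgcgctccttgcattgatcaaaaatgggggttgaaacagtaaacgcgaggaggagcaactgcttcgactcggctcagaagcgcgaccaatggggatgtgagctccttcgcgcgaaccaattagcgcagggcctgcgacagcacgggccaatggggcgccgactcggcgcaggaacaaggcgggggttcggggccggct
PHGDH: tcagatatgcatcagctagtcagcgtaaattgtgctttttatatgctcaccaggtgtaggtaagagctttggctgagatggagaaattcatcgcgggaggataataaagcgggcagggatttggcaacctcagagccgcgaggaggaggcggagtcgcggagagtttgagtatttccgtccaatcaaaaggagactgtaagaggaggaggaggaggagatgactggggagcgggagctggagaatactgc
The ASNS match, TGATGAAAC, starts 68 bases before the RefSeq start, and GOT1 holds its match on the opposite strand. No match was found in the windows of PSAT1 and PHGDH, which says only that these letters are absent from them. RefSeq windows were matched for 32 of the 38 members, all but ALDH1L2, BCAT2, GPT2, PSPH, PYCR1 and SHMT2. The composite element was found before at least 1 start of 5 of the 32 members (ASNS, BCAT1, GOT1, MTHFD1L and SLC1A5) and of 3.87% of all 27305 genes with a window. The E-box CACGTG, which reads the same on both strands, was found in 8 of the 32 (ALDH18A1, MTHFD1, MTHFD1L, ODC1, SLC1A5, SLC43A1, SLC7A5 and SRM) and in 7.73% of all genes. MTHFD1L and SLC1A5 hold both, at positions that do not overlap. Such matches describe sequence only.

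Values are given as RPKM, reads per kilobase of exon scaled to the size of the library. Library totals, recovered from the smallest steps between values, ran from 15009113 to 16836207 reads. The siRNA target NT5E, the gene of CD73, was at 3.36, 6.85 and 8.22 RPKM in knockdown samples 1, 2 and 3 and 14.0, 13.9 and 17.1 RPKM in controls 1, 2 and 3, so each knockdown sample lay below each control. The log2 fold change of NT5E was -1.23 ± 0.26 (SE), with an unadjusted p of 0.00144 and an adjusted p = 0.303 in limma. Of the 5 ductal carcinoma markers, KRT8, KRT18, KRT19 and SOX9 passed the filter on low values and KRT7 did not. Their summed level was 124 to 155 RPKM in knockdown samples and 185 to 296 RPKM in controls. KRT8 and KRT18 fell, while log2 fold changes were negative for 3 and positive for 1 of the 4. In limma, 2 of the 4 were lower and 0 higher at an unadjusted p below 0.01, against 1.31% and 1.82% of all genes. A fit that also included the replicate number had 2 lower and 1 higher at an unadjusted p below 0.05, against 10.2% and 13.2%. The part of these marker differences in the results below was not tested. The summed markers of acinar, endocrine, endothelial and leukocyte cells reached at most 0.269 RPKM in any sample, while COL1A1 carried nearly all of the fibroblast sum of 9.01 to 19.2 RPKM. In bulk RNA, a lower level in each cell and fewer cells with that level cannot be told apart.

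Few of these metabolic genes were told apart between CD73 knockdown cells and negative controls, in shares at or below those of all genes tested. Of the 38 members, 35 reached 1 RPKM in at least 3 samples and were tested on log2(RPKM + 1) together with all 12527 genes that did so. At an unadjusted p below 0.01 in limma, 0 of the 35 were called, where 3.13% of all genes tested were (1.82% higher and 1.31% lower). At an unadjusted p below 0.05, 1 of the 35 was called, GPT2, which was higher, against 12.1% of all genes (7.22% higher and 4.90% lower). With the replicate number as a block, 1 of the 35 passed p below 0.01, PSAT1, which was higher, against 7.57% of all genes (4.27% higher and 3.30% lower). With the block, 6 of the 35 had an unadjusted p below 0.05, 3 higher (PSAT1, GPT2 and ASNS) and 3 lower (SLC38A1, GOT2 and SRM), against 23.3% of all genes (13.2% higher and 10.2% lower). An adjusted p below 0.05 was reached by 0 members in either fit and by 1 gene in all without the block (0.00798%), the smallest among members being 0.363 for GPT2 without the block and 0.129 for PSAT1 with it. The log2 fold changes of the 35 members ran from -0.23 to 0.31, with a median of -0.01, beside a median of 0.01 over all genes tested. The 95% interval lay within 1 log2 unit of 0 for all 35 members and within 0.5 for 20 of them (57.1%), where the shares of all genes tested were 94.3% and 55.8%. On this scale fold changes of low genes are understated.

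**Figure D1:**
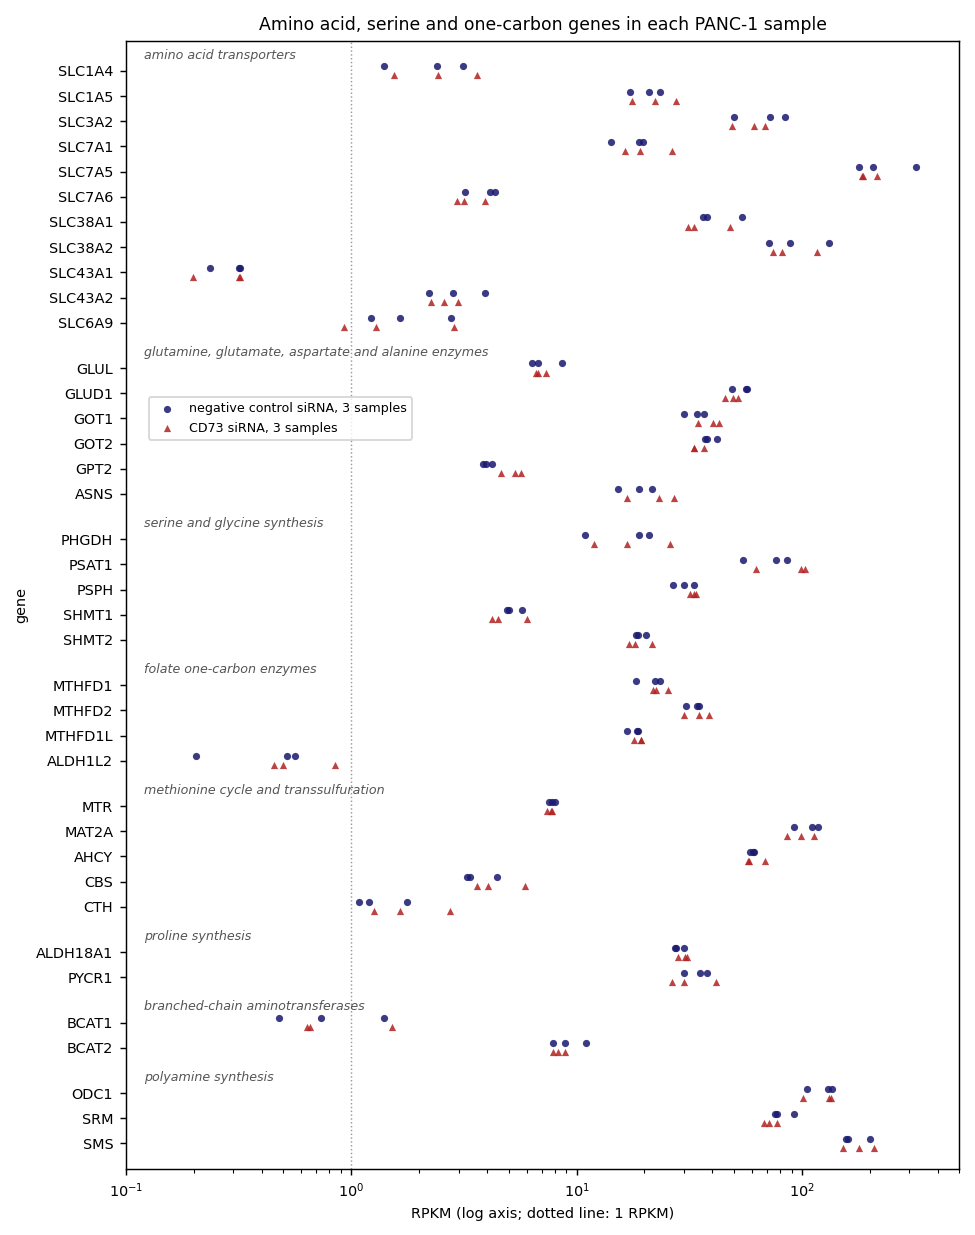
RPKM (log axis) of the 38 genes in the 3 negative control samples and the 3 CD73 siRNA samples, 1 point per sample, grouped by role. The points of the groups overlap for all tested genes except GPT2 and GOT2, and SLC43A1 and ALDH1L2 lie below 1 RPKM in every sample.

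**Figure D2:**
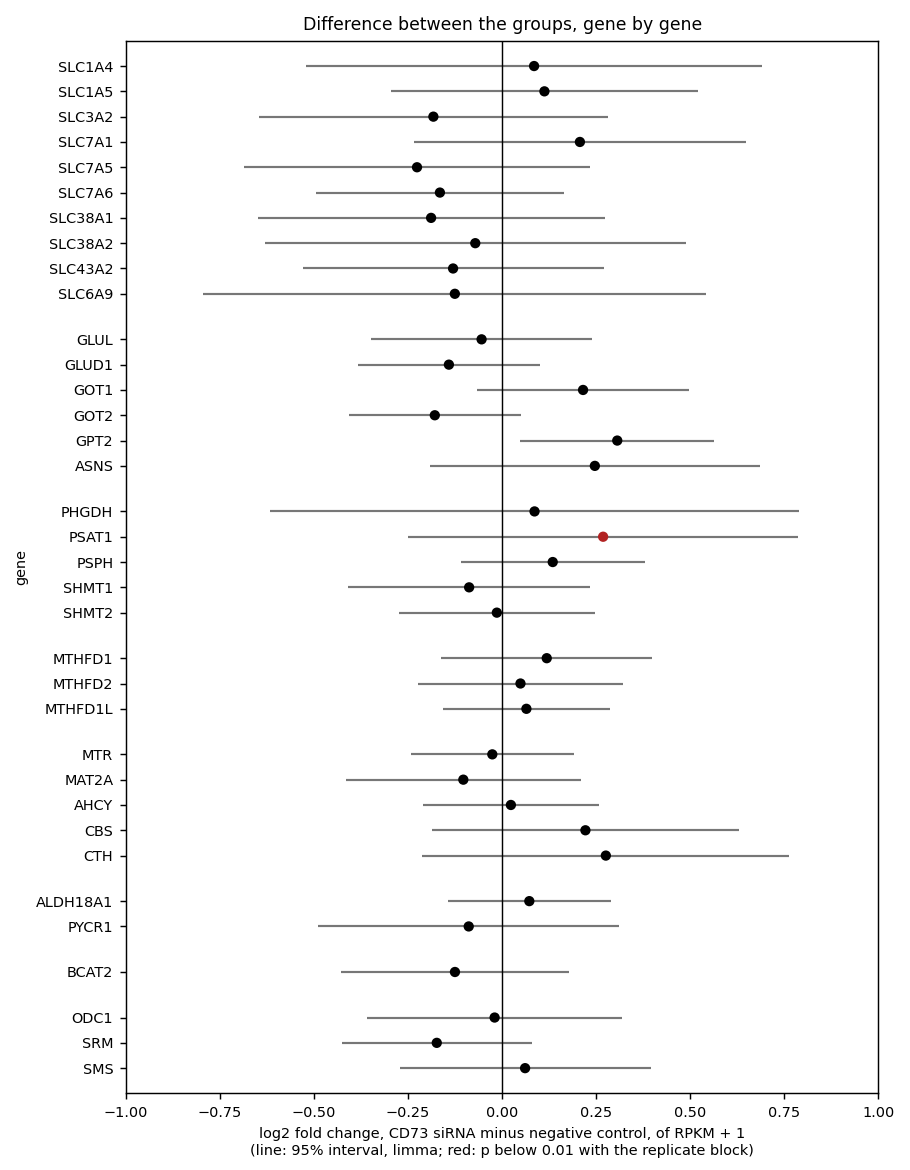
Log2 fold change of RPKM + 1 (points) with 95% interval (lines) for the 35 genes tested, in the role order of the plot of levels. The points lie between -0.23 and 0.31, the interval of GPT2 alone excludes 0, and PSAT1 (red) passed p below 0.01 with the replicate block.

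The amino acid transporters included some of the most and least abundant RNAs of the set. SLC7A5, which exchanges glutamine for leucine and other large neutral amino acids, had the highest mean RPKM of all 38 genes, at 215, 186 and 186 RPKM in knockdown samples 1, 2 and 3 and 319, 207 and 179.9 RPKM in controls 1, 2 and 3. Control 1 stood above the other 5 samples, which overlapped. SLC7A5 had a log2 fold change of -0.23 ± 0.20 (SE, adjusted p = 0.675 in limma, 95% interval -0.69 to 0.23), and without control 1 it was 0.02. SLC3A2, the chain that carries SLC7A5 to the membrane, was at 61.5, 68.6 and 49.2 RPKM after knockdown and 84.4, 72.2 and 50.1 RPKM in controls, and again control 1 was highest. SLC7A1, the carrier of arginine and lysine, averaged 20.7 ± 5.25 RPKM in knockdown samples and 17.6 ± 2.98 RPKM in controls (SD, n = 3 per group), and its log2 fold change was 0.21 ± 0.19 (SE). SLC1A5, an exchanger of glutamine, averaged 22.5 ± 5.07 RPKM in knockdown samples and 20.6 ± 3.07 RPKM in controls (SD, n = 3 per group). The sodium-coupled carriers of glutamine and other small neutral amino acids, SLC38A1 and SLC38A2, had log2 fold changes of -0.19 ± 0.20 and -0.07 ± 0.24 (SE), and both were highest in number 3 of each group. SLC38A1 was lower in knockdown within each number, with differences of -0.27, -0.13 and -0.17 on the log2 scale and an unadjusted p of 0.373, and 0.0422 with the block. SLC7A6, SLC43A2, SLC1A4 and SLC6A9 were low, with group means from 1.69 to 3.88 RPKM and log2 fold changes from -0.17 to 0.09. SLC43A1 was at 0.198 to 0.321 RPKM, or 11 to 19 reads, in the 6 samples and was not tested. In all, 0 of the 10 tested transporters passed the threshold in either fit, and 3 had a positive and 7 a negative log2 fold change.

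Among the enzymes of glutamine, glutamate, aspartate and alanine, GPT2 and GOT2 were the members whose groups did not overlap. GPT2, the mitochondrial alanine aminotransferase, lies on chromosome 16 from 46884378 to 46931297 (GENCODE release 29, GRCh38). It was at 5.34, 4.61 and 5.67 RPKM in knockdown samples 1, 2 and 3 and 3.85, 4.21 and 3.97 RPKM in controls 1, 2 and 3. All knockdown samples lay above all controls, and the difference was smallest in number 2. The log2 fold change of GPT2 was 0.31 ± 0.11 (SE, adjusted p = 0.363 in limma, 95% interval 0.05 to 0.56), with an unadjusted p of 0.0257, which ran from 0.0217 to 0.0872 without single samples. GOT2, the mitochondrial aspartate aminotransferase on chromosome 16 from 58707131 to 58734357, was at 36.8, 33.3 and 33.0 RPKM after knockdown and 42.2, 37.1 and 37.9 RPKM in controls. Its knockdown samples lay just under the controls, with a log2 fold change of -0.18 ± 0.10 (SE, adjusted p = 0.494 in limma) and an unadjusted p of 0.108, and 0.0444 with the block. Non-overlapping groups were seen in 2 of the 35 members, 1 higher and 1 lower, and in 18.4% of all genes tested (10.3% higher and 8.07% lower). The exact two-sided permutation test gave p = 0.1 for GPT2 and for GOT2, the smallest that 3 samples against 3 allow.

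GOT1, the cytosolic counterpart of GOT2, had a log2 fold change of the other sign, 0.22 ± 0.12 (SE, adjusted p = 0.503 in limma). ASNS, which makes asparagine and whose promoter is printed above, was at 23.3, 16.8 and 27.1 RPKM in knockdown samples 1, 2 and 3 and 18.9, 15.2 and 21.6 RPKM in controls 1, 2 and 3. In both groups number 2 was lowest and number 3 highest, and within each number the knockdown sample was the higher, by 0.29, 0.14 and 0.32 on the log2 scale. For ASNS the log2 fold change was 0.25 ± 0.19 (SE, adjusted p = 0.627 in limma), and the unadjusted p of 0.23 was 0.0203 with the block. GLUD1, which turns glutamate into 2-oxoglutarate and had the highest mean RPKM of this role, was at 51.9, 45.4 and 49.4 RPKM after knockdown and 56.9, 48.8 and 56.6 RPKM in controls. Its groups overlapped, with a log2 fold change of -0.14 ± 0.10 (SE, adjusted p = 0.613 in limma). GLUL, glutamine synthetase, averaged 6.88 ± 0.367 RPKM in knockdown samples and 7.23 ± 1.21 RPKM in controls (SD, n = 3 per group).

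In serine synthesis, PSAT1 and PHGDH differed more between the replicate numbers than between knockdown and control. PSAT1, the phosphoserine aminotransferase, lies on chromosome 9 from 78297143 to 78330093. It was at 99.0, 62.6 and 103 RPKM in knockdown samples 1, 2 and 3 and 76.5, 55.0 and 86.1 RPKM in controls 1, 2 and 3, so the groups overlapped. Within each number the knockdown sample was the higher, by 0.37, 0.18 and 0.25 on the log2 scale. The log2 fold change of PSAT1 was 0.27 ± 0.23 (SE, adjusted p = 0.658 in limma), and with the block the unadjusted p was 0.00928 and the adjusted p = 0.129. Leaving out single samples moved the log2 fold change of PSAT1 from 0.08 without control 2 to 0.50 without knockdown sample 2. PHGDH, the first enzyme of the branch, was at 16.7, 11.9 and 26.1 RPKM after knockdown and 18.9, 10.9 and 20.9 RPKM in controls. Number 2 was lowest in both groups, and the log2 differences within numbers 1, 2 and 3 were -0.17, 0.12 and 0.31. The log2 fold change of PHGDH was 0.09 ± 0.31 (SE, adjusted p = 0.935 in limma), with the widest interval of the members tested, from -0.62 to 0.79. PSPH, the last step to serine, averaged 32.9 ± 0.948 RPKM in knockdown samples and 30.0 ± 3.23 RPKM in controls (SD, n = 3 per group). SHMT1 and SHMT2, the cytosolic and mitochondrial enzymes that split serine into glycine and a carbon unit, had log2 fold changes of -0.09 ± 0.14 and -0.01 ± 0.11 (SE).

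The folate and methionine genes gave no call in either fit. MTHFD2, a mitochondrial folate dehydrogenase, was at 35.0, 30.1 and 38.6 RPKM in knockdown samples 1, 2 and 3 and 34.1, 30.6 and 35.1 RPKM in controls 1, 2 and 3. The groups overlapped and the log2 fold change of MTHFD2 was 0.05 ± 0.12 (SE, adjusted p = 0.896 in limma, 95% interval -0.22 to 0.32). MTHFD1L, which releases formate in mitochondria, and the cytosolic MTHFD1 had log2 fold changes of 0.06 ± 0.10 and 0.12 ± 0.12 (SE). ALDH1L2, another mitochondrial folate enzyme, was under the filter, at 0.497, 0.456 and 0.845 RPKM after knockdown and 0.520, 0.204 and 0.564 RPKM in controls, with overlapping groups (exact two-sided permutation test, p = 0.6).

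In the methionine cycle, MAT2A, which makes the methyl donor S-adenosylmethionine, was at 114, 86.2 and 98.6 RPKM in knockdown samples 1, 2 and 3 and 117, 92.5 and 110.4 RPKM in controls 1, 2 and 3. In both groups number 1 was highest and number 2 lowest, and the log2 fold change of MAT2A was -0.10 ± 0.14 (SE, adjusted p = 0.788 in limma). MTR, methionine synthase, averaged 7.61 ± 0.178 RPKM in knockdown samples and 7.77 ± 0.237 RPKM in controls (SD, n = 3 per group), and its 95% interval, -0.24 to 0.19, reached less far from 0 than that of any other member tested. AHCY, which clears S-adenosylhomocysteine, averaged 61.4 ± 6.28 RPKM in knockdown samples and 60.2 ± 1.16 RPKM in controls (SD, n = 3 per group). The log2 fold changes of CBS and CTH, the transsulfuration enzymes that lead from homocysteine to cysteine, were 0.22 ± 0.18 and 0.28 ± 0.21 (SE), positive within each number, with adjusted p = 0.64 and 0.626 in limma.

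Proline, branched-chain and polyamine genes gave no call in either fit. PYCR1, the last step to proline, was at 26.5, 30.1 and 41.7 RPKM in knockdown samples 1, 2 and 3 and 35.4, 29.8 and 38.1 RPKM in controls 1, 2 and 3, with number 3 highest in both groups. Its log2 fold change was -0.09 ± 0.17 (SE), beside 0.07 ± 0.09 for ALDH18A1, the first step of the route. BCAT2, the mitochondrial branched-chain aminotransferase, was at 8.87, 7.86 and 8.28 RPKM after knockdown and 11.0, 7.88 and 8.90 RPKM in controls, overlapping, with a log2 fold change of -0.13 ± 0.13 (SE). The cytosolic BCAT1 was under the filter, at 0.655, 0.637 and 1.51 RPKM after knockdown and 0.736, 0.476 and 1.40 RPKM in controls, with number 3 highest in both groups. SMS, spermine synthase, was at 179.9, 208 and 153 RPKM after knockdown and 157, 199.96 and 161 RPKM in controls, overlapping and highest in number 2 of each group. The log2 fold changes of SMS, of the spermidine synthase gene SRM and of ODC1, the rate-limiting step of polyamine synthesis, were 0.06 ± 0.14, -0.17 ± 0.11 and -0.02 ± 0.15 (SE). SRM was lower in knockdown within each number, with differences of -0.25, -0.12 and -0.16, and its unadjusted p was 0.151, and 0.046 with the block.

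Within replicate numbers, 19 of the 35 members kept a single sign of the knockdown difference in all 3 numbers, 10 of them higher and 9 lower. Over all genes tested the share was 51.4% (27.0% higher and 24.5% lower), so the members were near the background. The members with positive signs were SLC1A4, SLC1A5, SLC7A1, ASNS, PSAT1, GPT2, GOT1, MTHFD1L, CBS and CTH. Those with negative signs were SLC3A2, SLC7A6, SLC38A1, GLUD1, GOT2, MTR, MAT2A, BCAT2 and SRM.

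**Figure D3:**
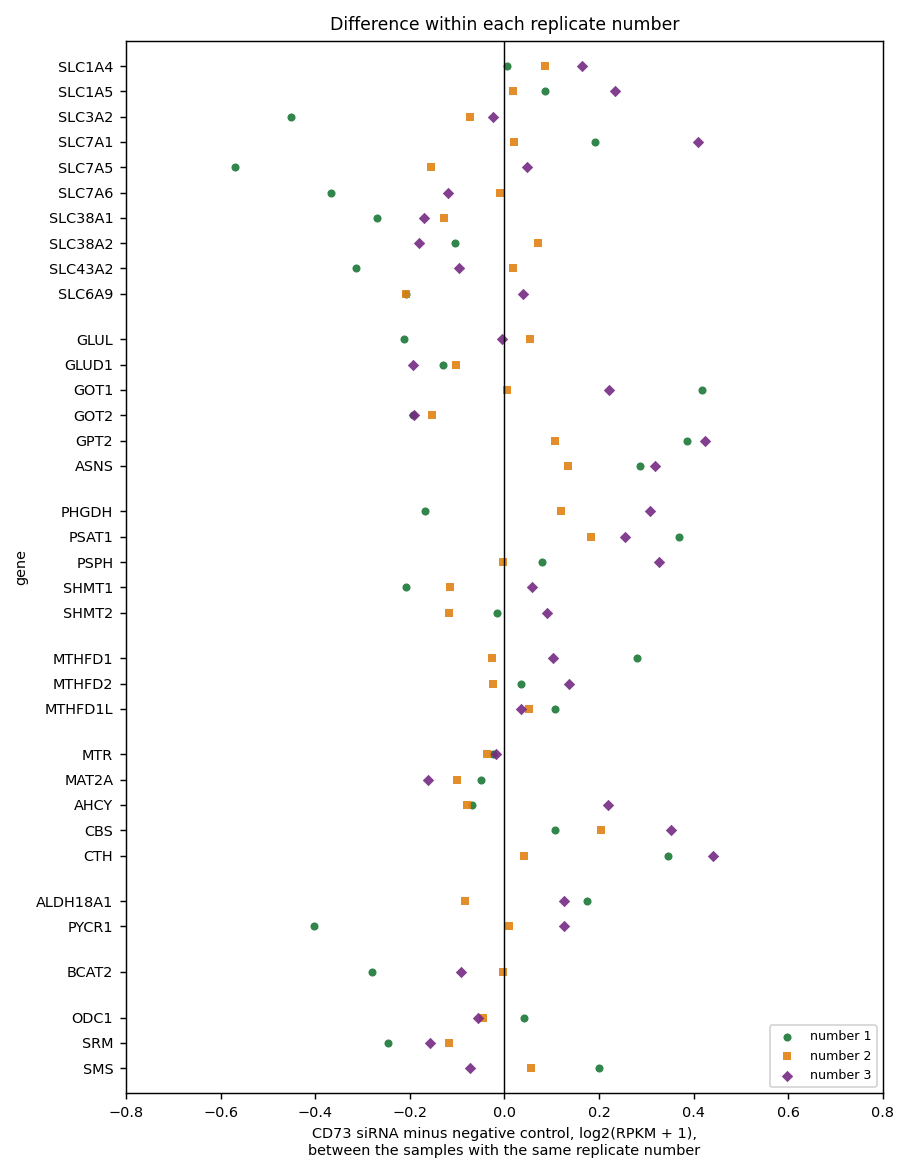
Knockdown minus control in log2(RPKM + 1) between the samples that share a replicate number (1 point per number), for the 35 genes tested in role order. For 19 genes the 3 points lie on the same side of 0, as for ASNS at 0.29, 0.14 and 0.32, and SLC7A5 runs from -0.57 to 0.05.

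The larger part of the spread among the samples followed the replicate number rather than the siRNA, a pattern described after the values had been seen. Replicate number accounted for a median of 75.6% of the sum of squares of a member's 6 log2 values and siRNA for 15.5%, against medians of 51.9% and 20.8% over all genes tested. With 3 numbers but 2 groups, the number takes the larger share even of random spread. The comparison to read is therefore that with all genes. The highest sample had the same number in both groups for 28 of the 35 members, against 53.8% of all genes, and the lowest for 20, against 52.1%. Number 3 was highest in both groups for 18 of the 35 (51.4%), against 17.8% of all genes, number 1 for 8 (13.3% of all genes) and number 2 for 2 (22.7%). Number 2 was lowest in both groups for 13 of the 35 (37.1%), against 16.8% of all genes, number 3 for 4 (21.3%) and number 1 for 3 (14.0%). The members share their 6 libraries and are not independent, so these shares carry no test.

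The mean of number 3 exceeded that of number 2 by 0.98 on the log2 scale for PHGDH, 0.88 for SLC6A9, a glycine carrier, 0.82 for SLC1A4, a carrier of serine and alanine, 0.76 for SLC38A2, 0.67 for PSAT1 and 0.57 for ASNS. It was the other way round for SLC3A2, SMS and ODC1, with differences of -0.50, -0.38 and -0.37. For 31 of the 35 members the range between the numbers was larger than the difference between knockdown and control, as for 72.9% of all genes. The 4 exceptions were GPT2, GOT1, GOT2 and ALDH18A1. A range over 3 numbers tends to exceed a difference between 2 groups even in random spread, so the share of all genes is the one to compare with.

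**Figure D4:**
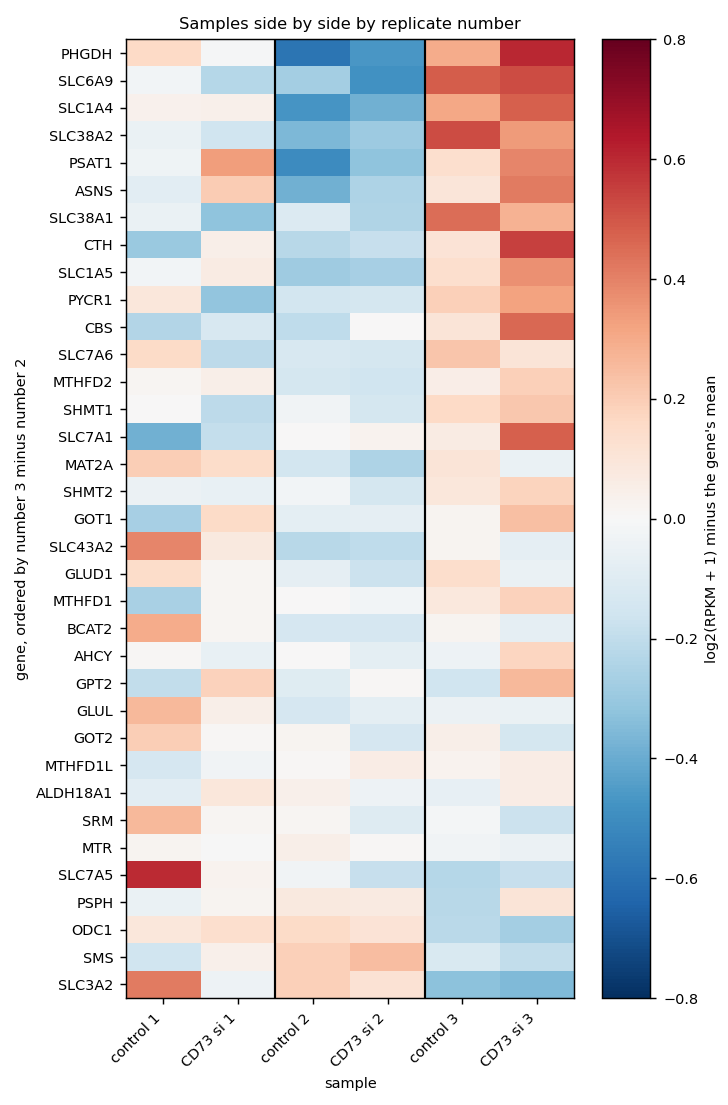
Log2(RPKM + 1) of the 35 genes minus each gene's mean (color), with the control and knockdown sample of each replicate number side by side and genes ordered by number 3 minus number 2. PHGDH, SLC6A9 and SLC1A4, with the largest differences of number 3 minus number 2 (0.98, 0.88 and 0.82), stand at one end and SLC3A2, SMS and ODC1 at the other.

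ATF4 and its regulators and targets were examined as a list of 19 genes, 17 of them tested. ATF4 RNA was at 126, 209.6 and 154 RPKM in knockdown samples 1, 2 and 3 and 129.6, 197 and 124 RPKM in controls 1, 2 and 3. Its groups overlapped, with number 2 highest in each, and the log2 fold change was 0.12 ± 0.23 (SE, adjusted p = 0.865 in limma). TRIB3, a pseudokinase that restrains ATF4, was at 10.2, 9.05 and 12.8 RPKM after knockdown and 6.15, 6.53 and 7.95 RPKM in controls, without overlap. TRIB3 rose by a log2 fold change of 0.56 ± 0.15 (SE, adjusted p = 0.303 in limma) at an unadjusted p of 0.00543, which was above 0.01 when any of 4 single samples was left out, up to 0.0216 without control 1. DDIT3, a transcription factor of the stress response, was at 9.97, 22.9 and 8.26 RPKM after knockdown and 7.49, 15.5 and 5.21 RPKM in controls, higher in knockdown within each number by 0.37, 0.53 and 0.58 on the log2 scale. The unadjusted p of DDIT3 was 0.283, and 0.000827 with the block, where PPP1R15A, which restores translation after stress, also passed at 0.00536. Without single samples, the log2 fold change of DDIT3, 0.49 ± 0.43 (SE), ran from 0.0782 without knockdown sample 2 to 0.89 without control 2. Lower in knockdown within each number were ATF5, a relative of ATF4, at 14.0, 16.2 and 15.5 RPKM after knockdown and 21.2, 21.3 and 16.5 RPKM in controls without overlap, and CEBPB, EIF4EBP1 and XPOT. Their log2 fold changes were -0.34 ± 0.13, -0.30 ± 0.18, -0.36 ± 0.17 and -0.22 ± 0.14 (SE), with unadjusted p of 0.027, 0.133, 0.0646 and 0.146, and of 0.0175, 0.0118, 0.0186 and 0.0274 with the block. CHAC1, STC2 and DDIT4 were highest in number 3 of both groups, while ATF3, DDIT3 and PPP1R15A were highest in number 2 and lowest in number 3 of both. In all, 1 of the 17 tested genes was higher and 0 lower at p below 0.01, against 1.82% and 1.31% of all genes tested. With the block 3 were higher and 0 lower, against 4.27% and 3.30%. The median log2 fold change of the list was -0.04. At an unadjusted p below 0.05 the counts were 1 higher and 1 lower, against 7.22% and 4.90% of all genes tested. With the block they were 4 and 4, against 13.2% and 10.2%.

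Aminoacyl-tRNA synthetases charge tRNAs with their amino acids. Of 23 cytosolic synthetase and scaffold genes, all tested, 1 rose in limma, AARS1 for alanine, and 3 with the block, AARS1, KARS1 for lysine and SARS1 for serine, where 1.82% and 4.27% of all genes were called higher. AARS1 was at 70.3, 75.0 and 68.0 RPKM after knockdown and 52.0, 62.0 and 46.0 RPKM in controls, without overlap. Its log2 fold change was 0.42 ± 0.12 (SE, adjusted p = 0.315 in limma), and the unadjusted p of 0.00954 went above 0.01 when any sample except control 2 was left out, up to 0.0373 without control 3. KARS1 and SARS1 had log2 fold changes of 0.43 ± 0.17 and 0.30 ± 0.11 (SE), with unadjusted p of 0.0325 and 0.0212, and of 0.00704 and 0.00885 with the block. At an unadjusted p below 0.05 in limma, 3 of the 23 were higher and 0 lower, against 7.22% and 4.90% of all genes. With the block, 6 were higher and 0 lower, against 13.2% and 10.2%. Positive log2 fold changes were found in 17 of the 23, beside 52.0% of all genes tested. The median was 0.10, beside 0.01 over all genes tested, and these counts carry no test. Of 17 mitochondrial synthetases 16 were tested, and 1 was called, MARS2 for methionine, where 1.31% of all genes were called lower. MARS2 fell, averaging 7.27 ± 0.654 RPKM in knockdown samples and 9.81 ± 0.805 RPKM in controls (SD, n = 3 per group). Of the 16, 9 had a positive and 7 a negative log2 fold change. With the block, 4 were higher and 2 lower at an unadjusted p below 0.05, against 13.2% and 10.2% of all genes. The unadjusted p of MARS2, 0.00842, went above 0.01 when any single sample was left out, up to 0.0365 without knockdown sample 1.

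Of 27 other amino acid carriers, 13 were tested and 0 passed in limma, with 3 at an unadjusted p below 0.05, while SLC36A1 and SLC6A6 passed with the block. Of all genes tested, 3.13% passed in limma, 12.1% had an unadjusted p below 0.05, and 7.57% passed with the block. The same shares stand beside the lists that follow. SLC36A1, a lysosomal and plasma membrane carrier of small amino acids, was at 3.74, 4.04 and 5.45 RPKM after knockdown and 7.72, 5.47 and 8.96 RPKM in controls. Its lowest control was just above its highest knockdown sample, the log2 fold change was -0.62 ± 0.19 (SE), and the unadjusted p was 0.0104, and 0.00128 with the block. SLC6A6, the taurine carrier, averaged 15.7 ± 1.76 RPKM in knockdown samples and 23.1 ± 5.16 RPKM in controls (SD, n = 3 per group), with an unadjusted p of 0.015, and 0.00278 with the block. SLC7A11, the cystine carrier, had log2 differences within numbers 1, 2 and 3 of 0.25, 0.37 and 0.44, with an unadjusted p of 0.275, and 0.0107 with the block. Of 12 tested folate and glycine cleavage genes and 16 tested methionine, cysteine and polyamine genes, 0 passed in either fit, with 1 and 3 at an unadjusted p below 0.05. Of 16 tested glutamine, proline and branched-chain genes, 0 passed in limma, with 2 at an unadjusted p below 0.05, and 1 passed with the block. This was GFPT1, which opens the hexosamine route from glutamine and averaged 12.3 ± 2.97 RPKM in knockdown samples and 8.39 ± 0.872 RPKM in controls (SD, n = 3 per group), with an unadjusted p of 0.0185, and 0.00194 with the block.

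**Figure D5:**
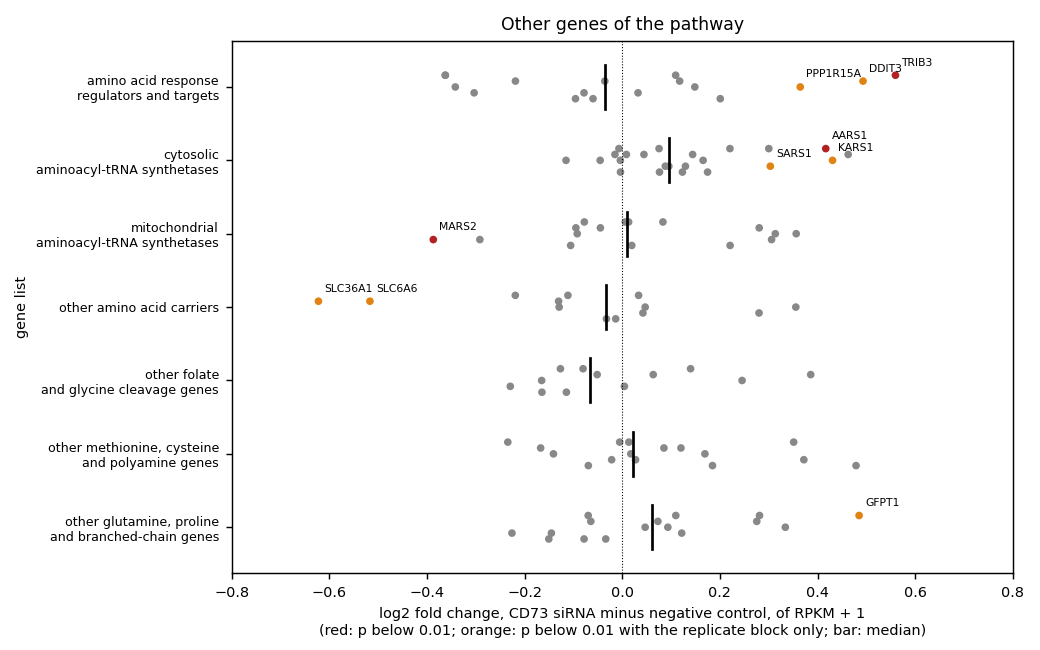
Log2 fold changes of the tested genes of 7 other lists (points, with the list median as a bar). Red points (TRIB3, AARS1 and MARS2) passed p below 0.01, and 7 labelled orange points passed with the replicate block only, from SLC36A1 at -0.62 to DDIT3 at 0.49.

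Some levels may hold reads of other loci, or lack reads that overlap them. Strand use in counting is not given in the sources used here. Exons on the opposite strand cover 55.6% of the exon length of SLC7A6, 33.2% of MTHFD2 and 23.8% of SLC1A5. On the same strand, exons of other genes cover 14.1% of PYCR1 and 3.57% of AHCY. Of the near copies named for members, PSPHP1 reached 28.6 RPKM, SLC7A5P1 6.73 RPKM and GLUD1P3 2.83 RPKM, so reads could be divided between PSPH, SLC7A5 or GLUD1 and these. CBS has the copy CBSL in GRCh38, at 0.286 to 0.593 RPKM, so that the values of CBS are uncertain in the same way.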

How the data were processed

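RNA-seq of 3 CD73 siRNA and 3 negative control samples was analysed, grouped by the sample titles. The authors deposited 1 table per sample with a normalized value per Ensembl gene, read here as RPKM. The unit is not named in the tables. After multiplication by merged exon lengths (GENCODE release 29), 95.8% to 96.1% of values below 50 reads were within 0.02 of a whole number of steps, and the size of a step gave the library total. The submitters' processing notes name bcl2fastq, Bowtie2 2.2.3, HTSeq 0.6.0 and hg38. The annotation and strand setting are not given in the sources used here.

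All 12527 genes that reached 1 RPKM in 3 samples or more were compared on log2(RPKM + 1), a pseudocount of 1, with limma 3.58.1 (lmFit, then eBayes with trend, R 4.3.3), and p-values were adjusted over all of them by Benjamini and Hochberg. An unadjusted p below 0.01, the threshold used in the paper, made a call, since few adjusted values pass. Error terms are limma's SE and 95% interval. The scripts were tested on simulated data. Same-numbered samples deviated together (correlations over genes of 0.20, 0.48 and 0.55 for numbers 1, 2 and 3, all above 0.1). A fit with the replicate number as a block is therefore given for the counts and for genes whose call it changed. It is also given for some further genes with an unadjusted p below 0.05 in that fit. The labels give no reason for the pairing, and the paper does not say whether same-numbered samples shared an experiment.

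Members and lists were chosen with earlier results of these data known. Values in every sample were given for members at p below 0.05, or below 0.01 with the block, and for the highest member of each role. Genes of other lists were named at p below 0.01 in either fit, and ATF4. SLC3A2, GOT2, ASNS, PHGDH, ALDH1L2 and BCAT1 of the members and SLC7A11, CHAC1, STC2, DDIT4, ATF3, ATF5, CEBPB, EIF4EBP1 and XPOT of the other lists were added after their values were seen. Of 31 amino acid sensing genes, 30 were matched by symbol. Alternatives were other pseudocounts, filters, scalings, no trend, the block and each sample left out.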

Additional observations from a re-analysis of the deposited data

How the results depend on the processing

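The count of members called at p below 0.01 was 0 with 0.1 as the pseudocount, with or without the filters on low values, under median centring and quantile normalization, without the trend and without any single sample. It was 1, PSAT1, with the replicate block, which changed no other member's call. The median log2 fold change of the members, -0.014, ran from -0.051 to 0.051 without single samples. The log2 fold changes of 14 of the 35 members, and of ATF4 and PPP1R15A, changed sign when at least 1 single sample was left out, with these ranges over the 6 fits: SLC1A4 -0.13 to 0.30, SLC1A5 -0.042 to 0.27, SLC7A5 -0.40 to 0.015, SLC38A2 -0.27 to 0.17, SLC43A2 -0.27 to 0.033, SLC6A9 -0.42 to 0.086, GLUL -0.13 to 0.062, PHGDH -0.19 to 0.34, SHMT2 -0.11 to 0.051, MTHFD2 -0.033 to 0.14, AHCY -0.058 to 0.069, PYCR1 -0.27 to 0.045, ODC1 -0.13 to 0.11, SMS -0.048 to 0.17, ATF4 -0.078 to 0.33 and PPP1R15A -0.14 to 0.95. These sign changes arose in leave-one-out fits and under no other alternative run. Genes called over all genes numbered 392, 948 with the replicate block, and 116 to 792 without single samples (116 without CD73 siRNA sample 1, 188 without control 1, 258 without control 3 and 792 without control 2). Calls in the other pathway lists numbered 4, 12 with the replicate block, 2 without the trend and 0 to 9 without single samples (0 without CD73 siRNA sample 1, 1 without CD73 siRNA sample 3 or control 1, 2 without control 3 and 9 without control 2). Without the trend, the lost calls were AARS1 and MARS2. The cause of these shifts was not tested. The tested member with the fewest reads, CTH, rested on as few as 42.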

Other observations

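Of 28 tested genes of amino acid sensing by mTORC1, the kinase complex that couples amino acids to growth, 1 was called, RHEB, the GTPase that activates the complex, where 3.13% of all genes were, so the count was near the background. RHEB was at 18.4, 20.9 and 17.9 RPKM in knockdown samples 1, 2 and 3 and 25.7, 25.8 and 24.9 RPKM in controls 1, 2 and 3, with each knockdown sample below each control. RHEB fell by 0.40 on the log2 scale (SE 0.10, adjusted p = 0.303 in limma), at an unadjusted p of 0.00358, which was above 0.01 when any of 4 single samples was left out, up to 0.0158 without knockdown sample 1. The median log2 fold change of this list was 0.03.

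MYC was at 33.8, 49.1 and 38.2 RPKM in knockdown samples 1, 2 and 3 and 57.1, 58.5 and 46.7 RPKM in controls 1, 2 and 3. Knockdown sample 2 exceeded control 3, so the groups overlapped, but within each number the knockdown sample was the lower, with differences of -0.74, -0.25 and -0.28 on the log2 scale. The log2 fold change of MYC was -0.42 ± 0.15 (SE, adjusted p = 0.361 in limma), with an unadjusted p of 0.0253, and 0.00769 with the block. In limma, 0 of the 8 tested genes of the MYC network were called at p below 0.01, with 1, MYC, below 0.05. The shares of all genes tested were 3.13% and 12.1%. The polyamine genes ODC1 and SRM, which hold the E-box in the window searched, had log2 fold changes of -0.02 ± 0.15 and -0.17 ± 0.11 (SE) and were not called in either fit. Other members with the E-box went both ways, with -0.23 for SLC7A5 and 0.12, 0.11, 0.07 and 0.06 for MTHFD1, SLC1A5, ALDH18A1 and MTHFD1L. None of these was called in either fit, and SLC43A1, which also holds it, was below the filter. A link between MYC and these members was not tested.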
